A study of Mus musculus with 12 samples.

Results

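LSK cells that AMD3100 had brought into the blood were set against LSK cells resident in the marrow. LSK cells lack the markers of mature lineages and carry Sca-1 and Kit, and among them the stem cells and the earliest progenitors are found. The comparison rests on 3 arrays of blood taken 1 hr after AMD3100 and 3 arrays of marrow from mice given PBS, 6 of the 12 arrays of the study, chosen by their labels. All groups were male DBA2/J mice, and in all of them LSK cells were purified by flow cytometry before RNA was extracted. The other 6 arrays entered the same model, where they add to its estimate of spread, and are set against AMD3100 blood in direct contrasts below. They hold blood LSK cells after G-CSF (9 injections over 5 days) and after CWHM-823 with tGro-b, for which no time is given. No sample is untreated blood, so the treatment and the tissue cannot be told apart. The labels do not say whether the arrays of a group are separate mice or pools, so a p-value measures only the spread between these samples.

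Marrow stroma makes the chemokine CXCL12, and its receptor CXCR4 on stem and progenitor cells holds them in the marrow. AMD3100 (plerixafor) blocks CXCR4, and the cells then enter the circulation, which is why the drug is used to collect stem cells for transplantation. Resident stem cells divide rarely, while the progenitors that share the LSK gate cycle, prepare the blood lineages and carry lower levels of stem cell transcription factors.

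A level is given throughout as the log2 intensity of a gene's probe minus the 75th percentile of its array, so that 0 marks the 75th percentile and each unit is a 2-fold step. The number of arrays limits the precision. Same-numbered arrays of the 4 groups shared a slide, and the slide was a block in the linear model (limma) that gave every fold change, standard error and adjusted p (Benjamini-Hochberg over 23795 genes). Values after ± are standard errors. A gene passed at an adjusted p under 0.05. A gene is given by its brightest probe, and values of its further probes come from the same model fitted over probes. Where a gene lost its call against marrow without the slide block, the adjusted p of that second fit follows, marked unblocked. For single genes in the contrasts with the other blood groups no unblocked value is given. Across the 12 arrays the 75th percentile lay at 1146 to 2724 intensity units, and 70.8 to 83.4% of probes were well above background. On AMD3100 arrays 1, 2 and 3 this percentile was 1146, 1577 and 1581, the lowest of the 12. On marrow arrays 1, 2 and 3 it was 1966, 2476 and 1647. Well above background on all 3 marrow arrays and no AMD3100 array were 182 genes, and 20 the other way. The part of array brightness in these counts was not tested.

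The genes of both gate markers were above background on all 6 arrays. Kit, the stem cell factor receptor, stood at 3.44, 3.05 and 3.28 on AMD3100 arrays 1, 2 and 3 and at 3.63, 3.37 and 3.43 on marrow arrays 1, 2 and 3, and Ly6a, which encodes Sca-1, at -1.03, -0.28 and -1.38 against -0.97, -0.76 and -1.10. The groups overlapped for both, and neither passed (Kit -0.22 ± 0.14, adjusted p = 0.295; Ly6a 0.04 ± 0.26, adjusted p = 0.915). The progenitor markers Cd34 (-0.26 ± 0.15, adjusted p = 0.229), Flt3 (0.05 ± 0.20, adjusted p = 0.877) and Cd48 (0.30 ± 0.18, adjusted p = 0.259) did not pass either. Over the 14 markers fixed for LSK cells the summed level was 5.36 to 5.77 in blood and 5.65 to 6.13 in marrow. Of these markers 7 fell, among them Slamf1, Tie1, Gata2, Procr, Hoxa9 and Meis1, and 0 rose, beside 7.69% and 5.82% of all genes tested (median -0.45; 1 fell without the slide block, 3 without AMD3100 array 1 and 2 without marrow array 1 or 2, and no call held in a model of these 6 arrays alone or without slide 1 or slide 2). Markers of other cells were read in the same way, and the summed level of 11 neutrophil markers was 1.76 to 2.48 on the AMD3100 arrays and 1.82, 1.91 and 4.98 on the marrow arrays. Marrow array 3 stood apart in neutrophil transcripts. Where a list is described below by its counts and these moved by over 1.5 times without that array, the new counts are given. Monocyte markers summed to 5.12 to 5.17 in blood and 4.75 to 5.07 in marrow, and the dendritic, T cell, platelet and stromal sums overlapped between the groups. The sums of B cell, mast cell, NK and erythroblast markers are given beside the genes concerned.

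In all, 3215 genes passed, 13.5% of those tested: 1384 were higher in AMD3100 blood (5.82%) and 1831 lower (7.69%). Of these, 671 were at least 2-fold higher and 838 at least 2-fold lower, and all genes tested had a median of 0.11 on the log2 scale. The split depended on the processing, with 43% of the passing genes higher. With only probes above background on all 12 arrays 1918 were higher and 1925 lower (49.9% higher). With an intensity trend and robust prior 48% were higher. After quantile normalization, normexp background correction, in the authors' table or with no filter on dim probes it was 38.4 to 39.7%. Without the slide block 338 genes passed (1.42%), 122 higher (0.513%) and 216 lower (0.908%), and all 338 were among the 3215. A model of only the 6 arrays compared, with the block, passed 146 (0.614%), 76 higher (0.319%) and 70 lower (0.294%), of which 134 were among the 3215. The count also depended on single arrays: it was 712 without AMD3100 array 1, 1732 without AMD3100 array 2, 568 without marrow array 1 and 348 without marrow array 2. Without marrow array 3 it was 3514, of which 2392 were among the 3215. It was 37 without slide 1 and 52 without slide 2. Of 58 gene lists read, calls became fewer by over 1.5 times in 53 without the block, in 53 from the 6 arrays alone, in 14 to 50 without a single AMD3100 array or marrow array 1 or 2, and in 54 without slide 1 or slide 2. Without marrow array 3 they became fewer in 9 and more in 6. On 6308 genes (26.5%) the 3 arrays of one group all lay above the 3 of the other, with AMD3100 blood higher on 3467 (14.6%) and lower on 2841 (11.9%). The shares of 5.82% and 7.69% are the background for each count of list members below. The lists were chosen with earlier results of these data known, so their counts and ranks are descriptions and not tests.

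**Figure D1:**
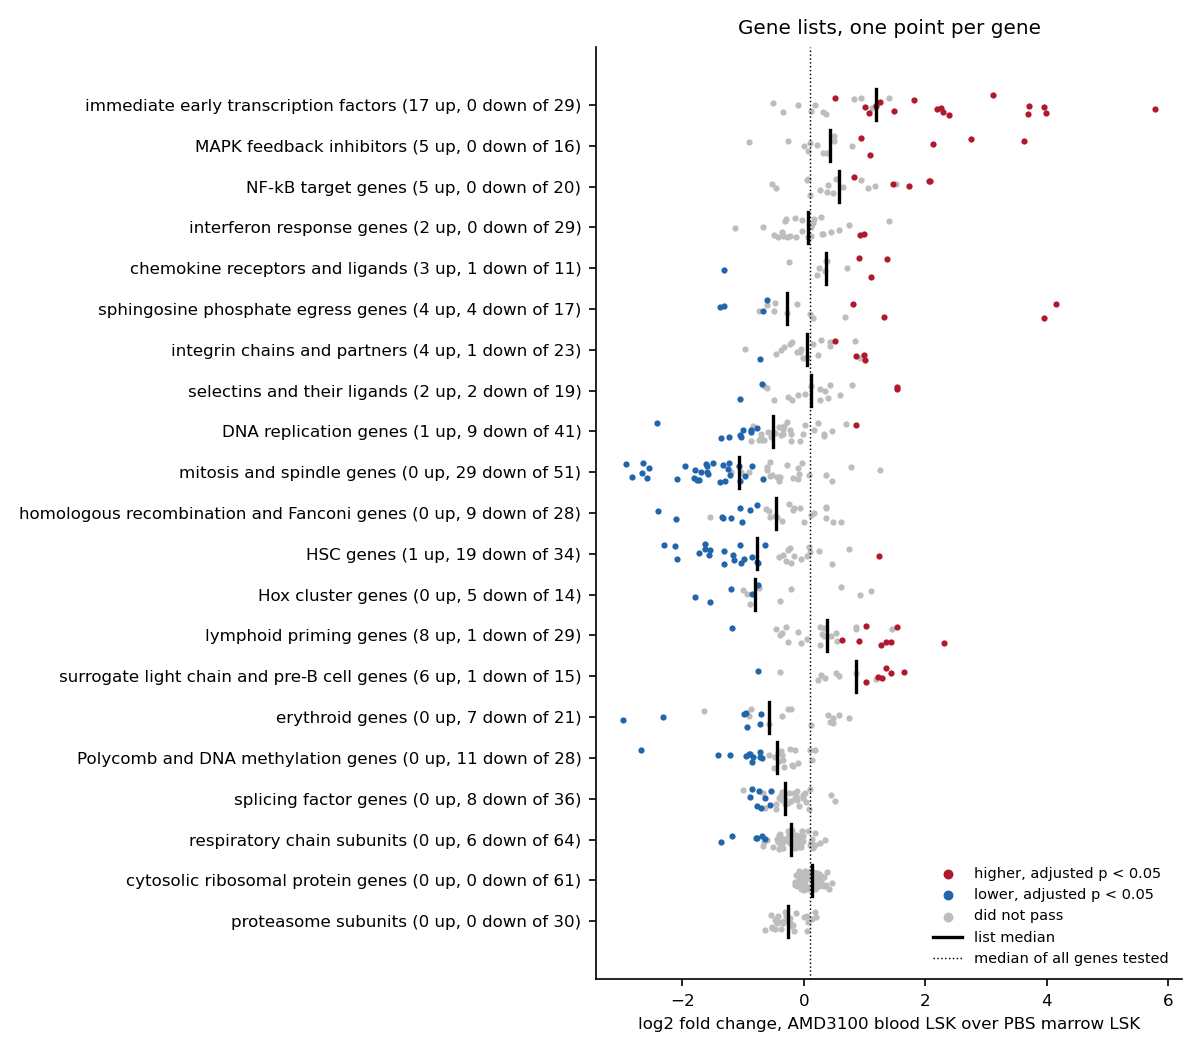
Each point is a gene, plotted by its log2 fold change between AMD3100 blood and PBS marrow LSK cells, in 21 gene lists; black bars are list medians and the dotted line is the median of all genes tested. The immediate early list has the highest median of those shown (1.18) and the mitosis list the lowest (-1.07).

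The immediate early genes, most of them transcription factors, are switched on within minutes of a signal at the cell surface. They were the list with the most increases: 17 of 29 tested members rose, 0 fell, and the median log2 fold change was 1.18. Egr3, a zinc finger factor of this class whose probe lies at chr14:70479222-70479281 (mm9), stood at 4.70, 4.11 and 4.48 in AMD3100 blood and at -1.05, -0.89 and -2.12 in marrow. Each blood array was higher than the marrow array of its slide, by 5.00 to 6.60 log2 units, a 55.1-fold increase (5.78 ± 0.39 log2, adjusted p = 0.000355). Klf2, a regulator of quiescence and migration in lymphocytes, had levels of 2.54, 1.47 and 2.49 against -1.97, -1.47 and -1.91 (15.4-fold higher, 3.95 ± 0.35, adjusted p = 0.00126). Nr4a1, an orphan nuclear receptor induced by receptor signalling, had levels of 3.56, 2.64 and 2.85 against -0.17, -0.30 and -1.55, and the groups were again far apart (12.9-fold, 3.69 ± 0.34, adjusted p = 0.00162). Nr4a3 was above background on each AMD3100 array and on no marrow array. It was at least 3.55-fold higher (adjusted p = 0.000141), and Csrnp1 by the same reading at least 2.89-fold (adjusted p = 0.00166). Egr2 rose as well (3.71 ± 0.53, adjusted p = 0.00704), although it was above background on 1 marrow array only. Fosb, a partner of Jun proteins in AP-1, went from 3.32, 3.03 and 3.61 to 5.77, 5.11 and 5.64 (2.19 ± 0.15, adjusted p = 0.000355).

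The rest of the list divided by member. The stress-responsive factor Atf3 (3.12 ± 0.39, adjusted p = 0.00461), Klf6 (2.28 ± 0.20, adjusted p = 0.00120), Klf4 (2.26 ± 0.23, adjusted p = 0.00230) and Nr4a2 (1.82 ± 0.24, adjusted p = 0.00527) rose. Smaller increases were seen for Fos (1.49 ± 0.22, adjusted p = 0.00776, 0.0724 unblocked), Egr1 (1.25 ± 0.31, adjusted p = 0.0329, 0.181 unblocked), Ier3 (1.08 ± 0.19, adjusted p = 0.0140, 0.119 unblocked) and Fosl1 (1.18 ± 0.32, adjusted p = 0.0442, 0.143 unblocked), and among the 17 the groups overlapped for Fosl1 alone. On marrow array 3 Fosl1, at -3.98, lay below that array's lowest signal well above background (-3.84). Zfp36, which encodes tristetraprolin and shortens the life of AU-rich messenger RNAs, had levels of 0.53, 0.29 and 0.96 against -0.38, -0.54 and -0.33 (1.01 ± 0.21, adjusted p = 0.0206, 0.159 unblocked). Myc moved least among the members that rose (0.51 ± 0.14, adjusted p = 0.0437, 0.237 unblocked). The Jun genes did not pass: Jun had levels of 3.35, 2.69 and 3.21 against 4.31, 3.90 and 2.58 (-0.51 ± 0.38, adjusted p = 0.359), and Junb gave 0.95 ± 0.35 (adjusted p = 0.0962). Ier2 gave 0.11 ± 0.33 (adjusted p = 0.829) and Btg2 1.40 ± 0.41 (adjusted p = 0.0531). In the list 11 members rose without the slide block, 9 from the 6 arrays alone, 10 without slide 2 and 3 without slide 1. Egr3 and Fosb passed under all 18 alternatives, as did Nr4a3 in the 16 that could be computed for it.

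Serum response factor, which several immediate early genes answer to, binds the CArG box, the letters CC, then 6 letters that are A or T, then GG. RefSeq promoter windows (GRCm38.p6, 250 bases before to 50 after a start site) were at hand for 23 tested members of the list, and a CArG box stood in 3 of them (13.04%), against 1.67% of all 13822 tested genes with a window. Of the 10 members with a window that did not pass, 1 held a CArG box. Another motif searched, the cyclic AMP response element, stood in 3 of the 23 (13.04%), against 2.92% of tested genes with a window. It was found in 0 members that rose and 3 that did not pass. Among the 13 members with a window that rose, 2 held a CArG box. These were Egr2 and Zfp36, the members with a window that both rose and carry the box. Their stretches are shown, 5′ to 3′ on the strand of the gene, with the CArG box in capitals. Egr1, Egr3, Fosl1 and Myc also rose but had no window, and bases over 250 before a start were not searched. Both Egr2 stretches belong to separate start sites, at chr10:67537469-67537528 and chr10:67537772-67537831 on the plus strand, each box 72 bases before its start, and that of Zfp36 lies at chr7:28379252-28379311 on the minus strand, 58 bases before.
Egr2, upstream start site: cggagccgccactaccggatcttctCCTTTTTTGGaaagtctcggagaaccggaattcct
Egr2, downstream start site: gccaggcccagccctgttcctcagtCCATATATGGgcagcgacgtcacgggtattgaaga
Zfp36: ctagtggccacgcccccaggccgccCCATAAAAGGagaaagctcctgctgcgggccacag
A match of letters is a description of the window and does not show that the factor was bound.

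**Figure D2:**
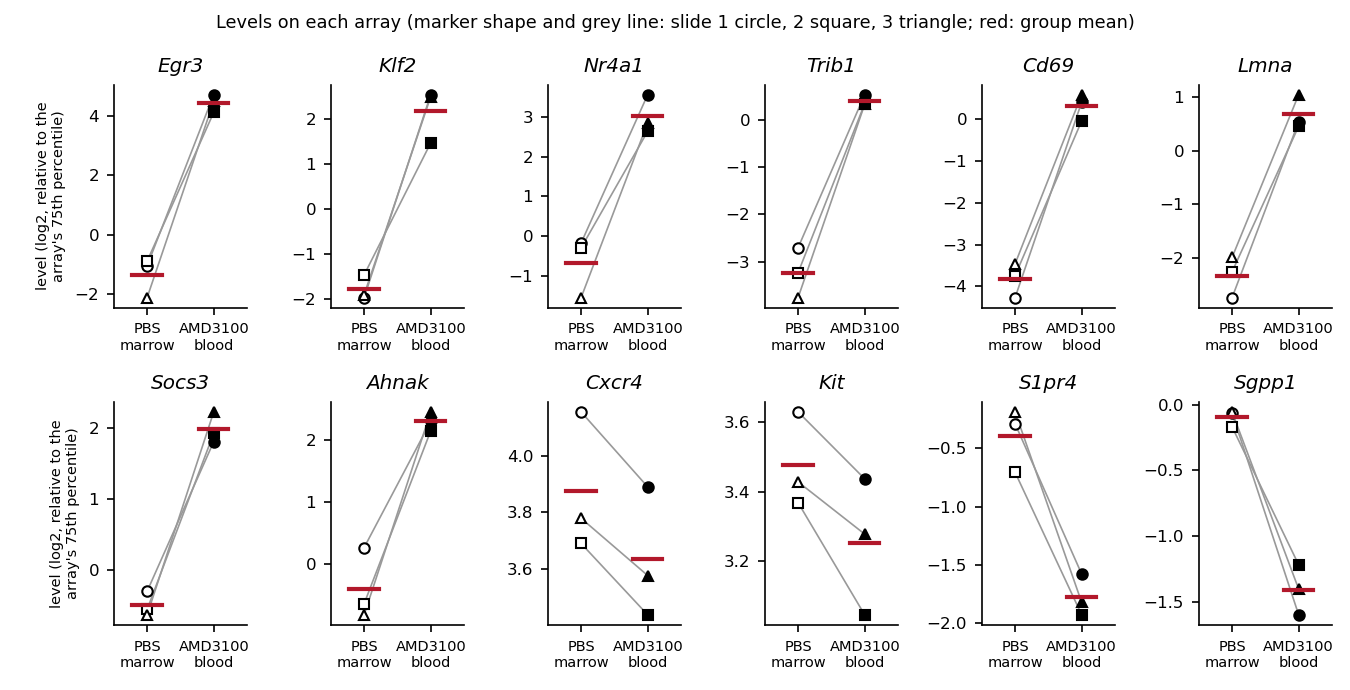
Levels of 12 genes on the 3 PBS marrow arrays and the 3 AMD3100 blood arrays, in log2 relative to the array's 75th percentile; a marker shape and a grey line join arrays of the same slide and a red bar is the group mean. Egr3, Klf2, Nr4a1, Trib1, Cd69, Lmna, Socs3 and Ahnak are higher on all blood arrays, S1pr4 and Sgpp1 are lower, and Cxcr4 and Kit overlap.

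Feedback inhibitors of the MAP kinase cascade, which is itself a trigger of immediate early genes, rose in 5 of 16 tested members and fell in 0 (median 0.43; 3 passed without the block, 3 from the 6 arrays alone, 2 without slide 1 and 2 without slide 2). Trib1, a pseudokinase that directs C/EBP alpha to degradation, had levels of 0.53, 0.34 and 0.32 in blood and -2.71, -3.24 and -3.76 in marrow (12.4-fold higher, 3.63 ± 0.25, adjusted p = 0.000355). Spry1, an inhibitor of receptor tyrosine kinase signalling, had levels of -0.90, -1.12 and -1.10 against -3.82, -3.52 and -4.04 (2.76 ± 0.16, adjusted p = 0.000205; above background on 2 of 3 marrow arrays). The ERK phosphatases Dusp5 (2.12 ± 0.21, adjusted p = 0.00230) and Dusp6 (1.09 ± 0.19, adjusted p = 0.0121, 0.0722 unblocked) and the stress kinase phosphatase Dusp8 (0.94 ± 0.25, adjusted p = 0.0416, 0.243 unblocked) rose too. The increase was not general among phosphatases, with Dusp1 at 0.49 ± 0.25 (adjusted p = 0.190) and Dusp2 at 0.80 ± 0.28 (adjusted p = 0.0808). Rasgef1b, an exchange factor for Ras-family proteins outside this list and among the largest increases of the comparison, had levels of 2.97, 1.93 and 2.75 against 0.25, -0.55 and -0.09 (2.68 ± 0.15, adjusted p = 0.000205).

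Targets of NF-kB rose in 5 of 20 tested members and fell in 0 (median 0.58; 3 passed without the block, 1 from the 6 arrays alone, 1 without AMD3100 array 1, 1 without marrow array 1, 2 without marrow array 2 and 2 without slide 2, and no call held without slide 1). Inhibitors of the pathway made up 3 of the 5. Nfkbid, a nuclear I-kappa-B protein, had levels of 2.37, 1.79 and 2.10 against 0.19, 0.11 and -0.27 (2.08 ± 0.19, adjusted p = 0.00147). Tnfaip3, the ubiquitin-editing enzyme A20 (2.07 ± 0.39, adjusted p = 0.0158; 2 of 3 marrow arrays above background), and Nfkbia (0.83 ± 0.19, adjusted p = 0.0279, 0.185 unblocked) rose. The cytokine Tnf (1.73 ± 0.32, adjusted p = 0.0156) and the chemokine Ccl3 (1.47 ± 0.33, adjusted p = 0.0262, 0.100 unblocked) were the secreted products among the members that rose. Icam1, an adhesion molecule of the list, gave 0.07 ± 0.24 (adjusted p = 0.847).

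Among 20 genes of cytokine signalling through JAK and STAT 1 was higher, 4 were lower and 15 did not pass (median -0.25). The share higher, 5.0%, was near the 5.82% of all genes tested. The counts higher and lower were 1 and 0 without the block, from the 6 arrays alone or without marrow array 2. They were 1 and 1 without AMD3100 array 1 or 2 or marrow array 1. Socs3, which is induced by STAT3 and shuts the receptor down, had levels of 1.80, 1.92 and 2.22 against -0.30, -0.56 and -0.64 (5.59-fold higher, 2.48 ± 0.30, adjusted p = 0.00429). The signal transducers Stat5a (-0.72 ± 0.16, adjusted p = 0.0275, 0.170 unblocked) and Stat5b (-1.16 ± 0.23, adjusted p = 0.0178, 0.0512 unblocked) and the kinase Jak1 (-0.65 ± 0.16, adjusted p = 0.0342, 0.153 unblocked) fell. Tyk2, a further Janus kinase, was above background on the marrow arrays only and at least 1.83-fold lower (adjusted p = 0.0276, 0.119 unblocked). Socs1, a further inhibitor, gave 0.12 ± 0.22 (adjusted p = 0.707). Interferon response genes had a median of 0.07, which turned negative under 6 of 18 alternatives, and 2 of 29 rose: Rsad2 (0.93 ± 0.18, adjusted p = 0.0189, 0.106 unblocked) and Mx2 (1.00 ± 0.26, adjusted p = 0.0385, 0.112 unblocked), and neither call held without the block or from the 6 arrays alone.

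The receptor that AMD3100 blocks did not pass. Cxcr4 had levels of 3.89, 3.44 and 3.58 in blood and 4.15, 3.69 and 3.78 in marrow, and the groups overlapped (-0.24 ± 0.21, adjusted p = 0.426). Its ligand Cxcl12 gave 0.21 ± 0.31 (adjusted p = 0.650), and Cxcr2, the receptor of Gro chemokines, 0.35 ± 0.27 (adjusted p = 0.384). The second CXCL12 receptor, Ackr3, was not tested here. Among 11 tested chemokine receptors and ligands 3 rose and 1 fell (median 0.37; 1 rose without the block, without AMD3100 array 1 or without marrow array 1, and no call held from the 6 arrays alone or without marrow array 2). Cxcr3, a receptor of interferon-induced chemokines, had levels of -1.01, -0.81 and -1.09 against -2.49, -2.21 and -2.31 (1.37 ± 0.22, adjusted p = 0.00981). Ccr9, which guides lymphoid progenitors and plasmacytoid cells to thymus and gut, had levels of 0.88, 0.31 and 0.77 against -0.14, -0.41 and -0.23 (0.91 ± 0.22, adjusted p = 0.0309, 0.126 unblocked). The atypical receptor Ccrl2 rose (1.10 ± 0.30, adjusted p = 0.0438, 0.124 unblocked) with overlapping groups, and Cxcr6 fell (-1.31 ± 0.37, adjusted p = 0.0491, 0.101 unblocked; a second probe gave -1.16 and did not pass).

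Genes of sphingosine phosphate, the lipid that draws cells out of tissue into blood, moved both ways: 4 of 17 rose and 4 fell (median -0.28; 3 and 2 without the block, 2 and 0 from the 6 arrays alone, 1 and 0 without slide 1, 2 and 0 without slide 2). Cd69, an early activation antigen that binds the receptor S1PR1 and removes it from the surface, had levels of 0.42, -0.03 and 0.59 in blood and -4.27, -3.74 and -3.46 in marrow, where 2 of 3 arrays were above background. It was among the largest differences of the comparison (17.8-fold higher, 4.15 ± 0.22, adjusted p = 0.000141) and passed under all 17 alternatives that could be computed for it. S1pr1 itself, at -1.78, -2.15 and -1.46 against -1.28, -1.85 and -1.44, did not pass (-0.28 ± 0.17, adjusted p = 0.260). S1pr4, a receptor of blood cells for the same lipid, fell from -0.29, -0.71 and -0.19 to -1.58, -1.93 and -1.82 (-1.38 ± 0.16, adjusted p = 0.00338). Enzymes that make or destroy the lipid fell: the phosphatase Sgpp1 (-1.31 ± 0.21, adjusted p = 0.0101), the lyase Sgpl1 (-0.60 ± 0.15, adjusted p = 0.0368, 0.177 unblocked) and the kinase Sphk2 (-0.66 ± 0.18, adjusted p = 0.0428, 0.228 unblocked). Rgs2 (1.31 ± 0.21, adjusted p = 0.00984) and Rgs16 (0.81 ± 0.20, adjusted p = 0.0355, 0.229 unblocked), which end G protein signalling, rose, though a second probe of Rgs2 gave 0.41 and did not pass. Klf2, described above, is the remaining member that rose.

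Adhesion genes changed in few members. Both chains of the integrin VLA-4 kept overlapping groups: Itga4 had levels of 0.93, 1.00 and 1.74 against 1.41, 1.29 and 1.65 (-0.23 ± 0.18, adjusted p = 0.385) and Itgb1 gave -0.02 ± 0.25 (adjusted p = 0.961). Of 23 integrin chains and partners 4 rose and 1 fell. No call in this list held without the block, from the 6 arrays alone, without marrow array 1 or without marrow array 3, and 1 gene passed without AMD3100 array 1, AMD3100 array 3 or marrow array 2. Itgal, a chain of LFA-1, gave 1.00 ± 0.25 (adjusted p = 0.0371, 0.149 unblocked) and Itga9 1.00 ± 0.23 (adjusted p = 0.0260, 0.140 unblocked). Itgam (0.52 ± 0.14, adjusted p = 0.0463, 0.310 unblocked) and Itgav (0.85 ± 0.19, adjusted p = 0.0255, 0.139 unblocked) complete the increases, a second Itgav probe gave -0.04, and further Itgam probes gave 0.16 and 0.87 without passing. The groups overlapped for Itgam. The integrin list's median of 0.05 turned negative under 7 of 18 alternatives. Selp, P-selectin of platelets and endothelium, had levels of -1.95, -2.01 and -1.71 against -3.68, -3.24 and -3.34 (1.53 ± 0.24, adjusted p = 0.00967). Its ligand Selplg gave 0.02 ± 0.17 (adjusted p = 0.939), and Esam, a junction protein that marks stem cells, fell (-1.05 ± 0.23, adjusted p = 0.0235, 0.0717 unblocked). The leukocyte adhesion receptor Adgre5 (CD97) had levels of 3.37, 2.99 and 3.84 against 1.11, 0.57 and 1.04 and passed under all 18 alternatives (2.49 ± 0.17, adjusted p = 0.000355).

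The lamin genes Lmna and Lmnb1 moved in opposite directions. Lmna, which encodes the stiffening lamins A and C, had levels of 0.54, 0.45 and 1.04 in blood and -2.75, -2.26 and -2.00 in marrow (8.07-fold higher, 3.01 ± 0.25, adjusted p = 0.00106). Lmnb1, the lamin B1 gene, went from -1.20, -0.92 and -0.99 in marrow to -2.07, -1.81 and -2.38 in blood (-1.05 ± 0.21, adjusted p = 0.0192, 0.0600 unblocked). They were the 2 of 18 lamin and inner nuclear membrane genes to pass (median -0.20). With 1 call each way (5.56%), neither share exceeded the 5.82% and 7.69% of all genes. In that list 1 rose and 4 fell without marrow array 3, 2 rose and 3 fell after quantile normalization and in the authors' table, and 1 rose and 0 fell without the block or from the 6 arrays alone. Ahnak, a giant scaffold protein of membrane and cytoskeleton, rose from 0.26, -0.64 and -0.82 to 2.30, 2.15 and 2.46 (6.52-fold, 2.70 ± 0.23, adjusted p = 0.00113), with 1.21 and 1.54 from further probes that also passed. Of 24 cytoskeletal targets of serum response factor 4 rose, and no call held without the block, from the 6 arrays alone or without AMD3100 array 1 or marrow array 2, Tpm4 being the member of smallest p (0.88 ± 0.15, adjusted p = 0.0133, 0.168 unblocked), and the list's median of 0.13 turned negative under 2 alternatives. Among 21 genes of proteolysis and matrix 4 rose (2 without the block, 1 from the 6 arrays alone, 2 without AMD3100 array 1 or marrow array 1). Plaur, the urokinase receptor, was above background in blood only and at least 3.14-fold higher (adjusted p = 0.00230), and Col18a1 gave 1.55 ± 0.23 (adjusted p = 0.00845).

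Genes of mitosis and the spindle were the list with the most decreases. Of 51 tested members 29 fell, 0 rose and 22 did not pass, and the median was -1.07. Ccna2, cyclin A2, which drives cells through S phase into mitosis, stood at -0.22, -0.06 and -0.04 in marrow and at -2.28, -3.39 and -2.59 in AMD3100 blood (6.25-fold lower, -2.64 ± 0.27, adjusted p = 0.00244). Ube2c, the ubiquitin-conjugating enzyme of the anaphase-promoting complex, fell from 1.47, 1.70 and 2.03 to 0.04, -0.05 and -0.22 (-1.81 ± 0.29, adjusted p = 0.00969). Cdc20, an activator of that complex, fell from 2.23, 2.21 and 2.36 to 1.23, 0.16 and 0.63 (-1.60 ± 0.23, adjusted p = 0.00771). For each of these genes the 3 blood arrays lay below the 3 marrow arrays. Birc5, survivin of the chromosomal passenger complex, gave -1.80 ± 0.23 (adjusted p = 0.00455), a second probe -1.40, which passed, and another -0.66, which did not. Its partner Incenp gave -1.61 ± 0.23 (adjusted p = 0.00706), and Aurkb, the kinase of the complex, was above background on the marrow arrays only and at least 2.23-fold lower (adjusted p = 0.00437, 0.0847 unblocked). Prc1, which bundles the central spindle (-1.68 ± 0.23, adjusted p = 0.00611), Nusap1 (-1.58 ± 0.19, adjusted p = 0.00415), the checkpoint kinase Bub1b (-1.59 ± 0.24, adjusted p = 0.00855; 2 of 3 blood arrays above background) and Ccnf, cyclin F (-1.50 ± 0.15, adjusted p = 0.00213), also fell.

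Further members were seen only in marrow or lost in part of the blood arrays. Kif20b was at least 3.57-fold lower (adjusted p = 0.00416), the spindle gene Aspm at least 4.51-fold (adjusted p = 0.0110) and the cytokinesis gene Anln at least 2.14-fold (adjusted p = 0.00947, 0.0650 unblocked). Kif22 was above background on 1 blood array (-2.57 ± 0.35, adjusted p = 0.00603) and Top2a, topoisomerase II alpha, on 2 (-1.75 ± 0.31, adjusted p = 0.0135). Foxm1, the transcription factor of the G2 programme (-1.05 ± 0.19, adjusted p = 0.0139, 0.0612 unblocked), and the proliferation antigen Mki67 (-0.67 ± 0.17, adjusted p = 0.0344, 0.225 unblocked) fell by less, a second Mki67 probe giving -0.40 without passing. Plk1, a mitotic kinase, did not pass (-0.41 ± 0.16, adjusted p = 0.109). Probes disagreed for the central kinase Cdk1: the brightest gave 0.78 ± 0.37 and did not pass (adjusted p = 0.165), while the others gave -2.55 and -3.69 and both passed. For cyclin B1, Ccnb1, the brightest probe, which is placed on another chromosome than the gene, gave -0.39 ± 0.25 (adjusted p = 0.291) and a further one -2.13, which passed. Both genes are counted above by the brightest probe, as not passed. In a bulk sample, fewer dividing cells and less RNA per dividing cell cannot be told apart. In the list 14 members fell without the slide block, 7 from the 6 arrays alone, 13 without marrow array 2, 19 without AMD3100 array 1, 3 without slide 1 and 0 without slide 2. The list's median stayed between -1.27 and -0.79 over the 18 alternatives.

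**Figure D3:**
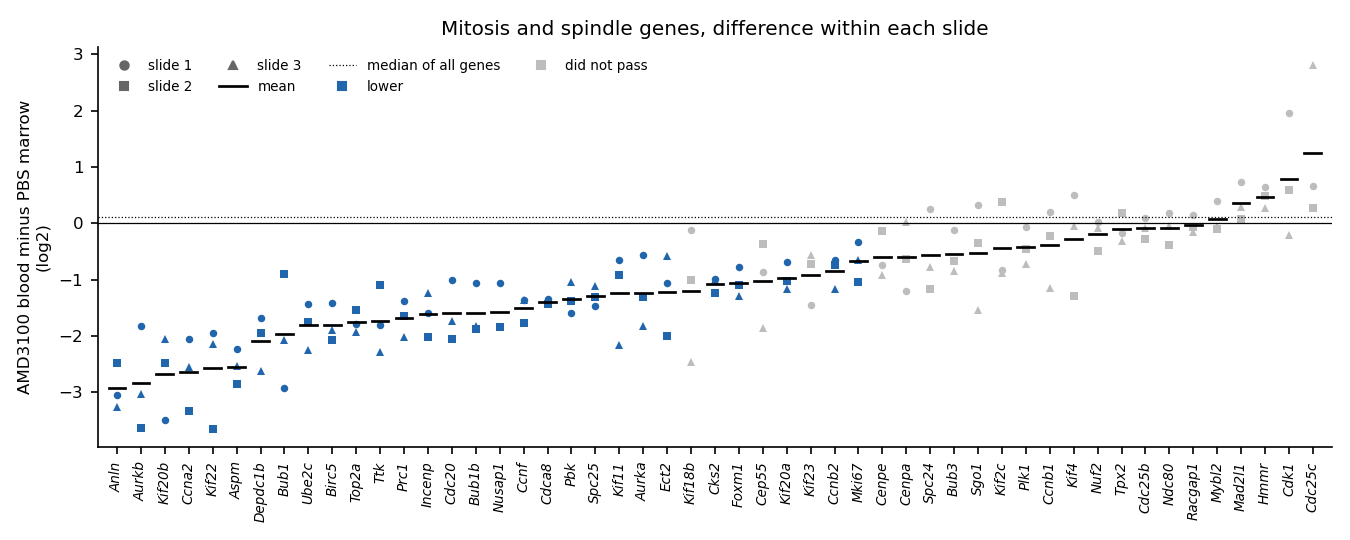
Mitosis and spindle genes ordered by their mean log2 difference between AMD3100 blood and PBS marrow; the 3 markers of a gene are the differences within slides 1 to 3 and a black bar is their mean. Blue genes fell, 29 of 51, and grey genes did not pass; the dotted line is the median of all genes, 0.11.

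Late cell cycle promoters carry a paired signature: the CCAAT box, bound by NF-Y, and the cell cycle homology region (CHR), TTTGAA or TTCGAA, bound by the DREAM and MuvB complexes. RefSeq windows were at hand for 41 of the 51 tested members and were searched on both strands. CCAAT was found in 31 (75.6%), the CHR in 33 (80.5%) and both in 28 (68.3%), against 42.1%, 18.0% and 7.42% of all tested genes with a window. Members that fell and members that did not pass both held the letters: both motifs stood in 17 of 22 that fell and in 11 of 19 that did not pass. A stretch of 80 bases is shown for 4 members that fell, 5′ to 3′ on the gene's strand, with CCAAT (or ATTGG on the other strand) and the CHR (or TTCAAA on the other strand) in capitals. They lie at chr2:164769834-164769913 (plus strand, CHR 29 bases before the start), chr4:118437344-118437423 (minus, 18 bases), chr11:99024197-99024276 (minus, 23 bases) and chr7:127042421-127042500 (minus, 17 bases).
Ube2c: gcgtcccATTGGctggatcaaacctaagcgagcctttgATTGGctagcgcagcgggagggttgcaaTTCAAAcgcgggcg
Cdc20: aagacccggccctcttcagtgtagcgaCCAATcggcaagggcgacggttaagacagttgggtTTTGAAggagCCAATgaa
Top2a: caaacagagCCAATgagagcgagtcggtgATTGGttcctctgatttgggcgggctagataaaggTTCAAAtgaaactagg
Kif22: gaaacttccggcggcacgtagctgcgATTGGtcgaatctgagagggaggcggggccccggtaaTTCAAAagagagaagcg
In all 4 the CHR stands 17 to 29 bases before the start site and a CCAAT box lies further upstream.

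In DNA replication 9 of 41 tested genes fell and 1 rose (median -0.50; 1 fell without the block, from the 6 arrays alone, without either of AMD3100 arrays 1 and 2 or without marrow array 2, and 2 fell and 2 rose without marrow array 3). Tk1, thymidine kinase of the salvage pathway, stood at -0.50, 0.14 and 0.82 in marrow and -2.67, -2.45 and -1.66 in blood, where 2 of 3 arrays were above background (5.32-fold lower, -2.41 ± 0.32, adjusted p = 0.00524). The flap nuclease Fen1 (-1.36 ± 0.32, adjusted p = 0.0300, 0.0942 unblocked), the ribonucleotide reductase subunit Rrm1 (-1.03 ± 0.22, adjusted p = 0.0234, 0.0764 unblocked) and the origin factor Mcm10 (-0.99 ± 0.26, adjusted p = 0.0385, 0.0948 unblocked) fell. Cdc45, a helicase subunit, was the member that rose (0.85 ± 0.23, adjusted p = 0.0427, 0.156 unblocked). The clamp Pcna (-0.73 ± 0.23, adjusted p = 0.0630), Mcm5 (-0.82 ± 0.24, adjusted p = 0.0546) and Mcm2 (-0.40 ± 0.24, adjusted p = 0.258) had negative values and did not pass. In homologous recombination and the Fanconi pathway 9 of 28 genes fell and 0 rose (median -0.46; 1 fell without the block, 4 without marrow array 1 and 1 without marrow array 2, and no call held from the 6 arrays alone). Brca2, which acts in the repair of broken DNA, went from -0.13, -0.19 and -0.19 to -2.95, -1.56 and -2.32 (4.31-fold lower, -2.11 ± 0.28, adjusted p = 0.00591). Fanci (-2.39 ± 0.53, adjusted p = 0.0252, 0.0906 unblocked; 2 of 3 blood arrays above background) and its partner Fancd2 (at least 1.65-fold lower, adjusted p = 0.0242, 0.0680 unblocked) fell. The probes of Bard1 disagreed: the one of highest signal gave -1.34 ± 0.25 (adjusted p = 0.0167, 0.0748 unblocked), another 2.48, which passed upward, and one more 0.22.

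Brakes of the cycle and death genes moved by member. Cdkn1c, the p57 inhibitor expressed in quiescent stem cells, fell with overlapping groups, from 0.07, -0.58 and -0.07 to -2.61, -2.24 and -0.46 (-1.58 ± 0.41, adjusted p = 0.0379, 0.103 unblocked), and Cdkn2a rose (1.32 ± 0.37, adjusted p = 0.0480, 0.171 unblocked). Of 22 p53 targets 2 rose and 4 fell (1 and 0 without the block, from the 6 arrays alone or without marrow array 1 or 2, 1 and 1 without AMD3100 array 1, and 1 and 2 without AMD3100 array 2). The canonical targets Cdkn1a (0.36 ± 0.17, adjusted p = 0.169) and Mdm2 (-0.62 ± 0.23, adjusted p = 0.0989) did not pass. Plk3, a stress kinase, was seen above background on 2 arrays of blood and none of marrow, which bounds it at 1.89-fold higher or more (adjusted p = 0.00381). Ccng2 (-1.42 ± 0.23, adjusted p = 0.0109, 0.0871 unblocked) and Sesn3 (-1.80 ± 0.45, adjusted p = 0.0347, 0.0803 unblocked), both targets of FOXO factors as well, fell. On AMD3100 array 1 Sesn3, at -4.86, lay below that array's lowest signal well above background (-3.35). In the Bcl2 family 3 of 15 tested genes rose and 3 fell, and no call held without the block. The killers divided: Bcl2l11, which encodes BIM (1.12 ± 0.20, adjusted p = 0.0145, 0.0966 unblocked), Bik (1.06 ± 0.27, adjusted p = 0.0385, 0.122 unblocked) and Pmaip1, which encodes NOXA (0.84 ± 0.24, adjusted p = 0.0491, 0.122 unblocked), rose, and Bbc3, which encodes PUMA, fell (-0.93 ± 0.24, adjusted p = 0.0374, 0.112 unblocked). The survival genes Bcl2 (-0.06 ± 0.18, adjusted p = 0.843) and Mcl1 (-0.05 ± 0.17, adjusted p = 0.850) did not pass.

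Among genes of the haematopoietic stem cell 19 of 34 tested members were lower and 1 higher (median -0.76). The defining surface markers came first. Slamf1 (CD150), which separates long-term stem cells from other LSK cells, was above background on the marrow arrays only, at least 3.79-fold lower in blood (adjusted p = 0.00455). Procr, the endothelial protein C receptor, went from 0.75, 0.12 and -0.30 to -1.34, -2.01 and -0.76 (-1.56 ± 0.32, adjusted p = 0.0203, 0.0551 unblocked). For Procr every blood array was below every marrow array. Transcription factors made up much of the rest: Hlf had levels of 1.02, 1.08 and 0.96 against 2.69, 2.33 and 1.97 (-1.31 ± 0.16, adjusted p = 0.00437). Prdm16 had levels of -2.55, -3.08 and -2.58 against -0.76, -1.19 and -1.40 (-1.62 ± 0.20, adjusted p = 0.00443). Pbx3 (-2.11 ± 0.31, adjusted p = 0.00771), Lyl1 (-1.72 ± 0.21, adjusted p = 0.00447), Mycn (-1.63 ± 0.22, adjusted p = 0.00556), Tal1 (-0.99 ± 0.15, adjusted p = 0.00967, 0.159 unblocked) and Gata2 (-0.85 ± 0.15, adjusted p = 0.0147, 0.227 unblocked) fell, with overlapping groups for Gata2. Gfi1, which restrains stem cell division and also serves granulocyte differentiation, fell from 0.90, 0.06 and -1.22 to -3.08, -1.88 and -2.22 (-2.31 ± 0.48, adjusted p = 0.0215). Mecom gave -1.32 ± 0.19 (adjusted p = 0.00706), but its second probe gave -0.10.

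Not every stem cell gene took part. Vwf (-0.17 ± 0.18, adjusted p = 0.537), Kit, Ly6a and Cd34 were among the 14 members that did not pass. Runx1, the factor that founds definitive haematopoiesis, was the member that rose, from -0.29, -1.05 and -1.07 to 0.49, 0.16 and 0.66 (1.24 ± 0.21, adjusted p = 0.0121, 0.0835 unblocked), and its second probe gave 0.05. The megakaryocytic surface protein Mmrn1, which stem cells share (-1.54 ± 0.22, adjusted p = 0.00714), and Mllt3 (-1.04 ± 0.16, adjusted p = 0.00967) fell. Of 14 Hox genes 5 fell and 0 rose (median -0.80; 1 without the block, and no call held from the 6 arrays alone or without AMD3100 array 1, marrow array 1 or marrow array 2): Hoxa3 (-1.54 ± 0.30, adjusted p = 0.0188), Hoxa5 (-1.19 ± 0.24, adjusted p = 0.0195, 0.102 unblocked), Hoxa9 (-0.76 ± 0.17, adjusted p = 0.0250, 0.124 unblocked), Hoxa10 (-0.85 ± 0.19, adjusted p = 0.0255, 0.165 unblocked) and Hoxb2 (at least 1.54-fold lower, adjusted p = 0.0349, 0.218 unblocked). Their cofactor Meis1 fell too (-0.63 ± 0.17, adjusted p = 0.0393, 0.228 unblocked). In the stem cell list 10 members fell without the slide block, 1 from the 6 arrays alone, 11 without AMD3100 array 1 or without marrow array 1, 9 without marrow array 2, and no call held without slide 1 or without slide 2. Its median lay between -0.91 and -0.68 over the 18 alternatives.

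**Figure D4:**
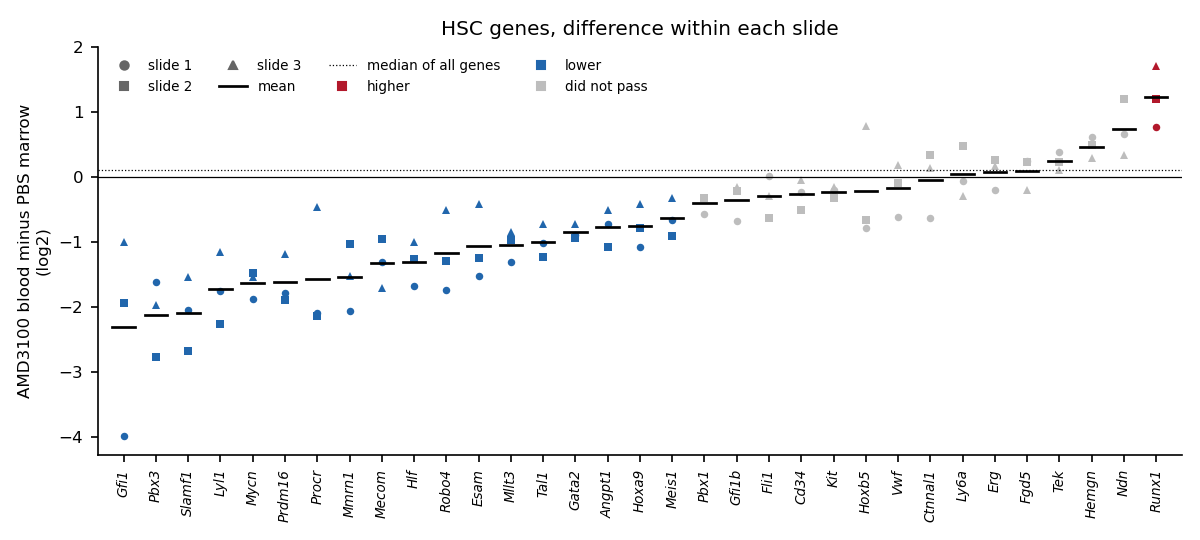
HSC genes ordered by their mean log2 difference between AMD3100 blood and PBS marrow, with the difference within each of slides 1 to 3 as a marker and the mean as a black bar. Of the 34 members tested 1 is not shown. Blue genes fell, the red gene, Runx1, rose, and grey genes, among them Kit, Ly6a and Cd34, did not pass.

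In the lymphoid lists more members rose than fell. Among 29 lymphoid priming genes 8 rose and 1 fell (median 0.38; 1 rose from the 6 arrays alone, and 4 without the block and likewise without AMD3100 array 1, marrow array 1 or marrow array 2). Tcf7, the T lineage factor TCF-1, had levels of 1.21, 1.10 and 0.90 in blood and -0.60, -1.24 and -1.90 in marrow (4.96-fold higher, 2.31 ± 0.33, adjusted p = 0.00697). Ets1 (1.36 ± 0.19, adjusted p = 0.00697; second probe 0.67, not passing), Cd7 (1.26 ± 0.18, adjusted p = 0.00704) and Satb1, a chromatin organizer of lymphoid progenitors (0.63 ± 0.17, adjusted p = 0.0422, 0.229 unblocked), rose. The B lineage factor Pax5 went from 0.06, 0.06 and -0.12 to 1.11, 1.10 and 0.85 (1.02 ± 0.20, adjusted p = 0.0187, 0.118 unblocked) and Ebf1 gave 1.44 ± 0.39 (adjusted p = 0.0448, 0.101 unblocked). Il7r (1.44 ± 0.58, adjusted p = 0.114), Dntt (0.45 ± 0.20, adjusted p = 0.150) and Flt3 did not pass, and Ikzf2 fell (-1.19 ± 0.22, adjusted p = 0.0147, 0.140 unblocked; second probe -0.65, not passing). Of 15 genes of the surrogate light chain and the pre-B cell 6 rose and 1 fell (median 0.87; 1 rose without the block and 1 without AMD3100 array 1, 4 without marrow array 3, 2 without AMD3100 array 3, and no call held from the 6 arrays alone or without marrow array 1 or 2). These include Vpreb1 (1.29 ± 0.32, adjusted p = 0.0332, 0.0934 unblocked), Vpreb3 (1.36 ± 0.25, adjusted p = 0.0142), the adaptor Blnk (1.64 ± 0.42, adjusted p = 0.0374, 0.112 unblocked) and the coactivator Pou2af1 (1.22 ± 0.33, adjusted p = 0.0434, 0.136 unblocked), while Myb fell with overlapping groups (-0.75 ± 0.20, adjusted p = 0.0392, 0.270 unblocked). Markers of mature B cells rose in 1 of 11 (Pax5) and of T cells in 1 of 11 (Cd5, 1.13 ± 0.31, adjusted p = 0.0439, 0.130 unblocked), and neither held without the block. Without marrow array 3, 2 T cell markers rose. The summed levels of the B cell markers were 5.80 to 6.35 in blood and 5.36 to 6.04 in marrow; the part of such cells in these results was not tested.

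A few granule genes of mast cells, basophils and cytotoxic cells rose. Gzmb, granzyme B, stood above background on each blood array and on no marrow array. It was at least 8.91-fold higher (adjusted p = 0.00106), the largest such bound among the increases. Hdc, which makes histamine, had levels of -1.16, -0.01 and -0.55 against -3.44, -2.60 and -3.20 (5.69-fold higher, 2.51 ± 0.45, adjusted p = 0.0135). Cpa3, mast cell carboxypeptidase, had levels of 0.00, -0.39 and 0.23 against -1.90, -1.83 and -1.58 (1.71 ± 0.17, adjusted p = 0.00230). These were the 3 of 9 tested mast cell and basophil markers that rose, as many as without the block or from the 6 arrays alone, while 1 rose without slide 1 or slide 2. The list's median was 0.88, and its summed level was 2.78 to 4.03 in blood and 2.06 to 2.56 in marrow. Of 12 NK and innate lymphoid markers 3 rose, Gzmb with Nkg7 (0.68 ± 0.17, adjusted p = 0.0329, 0.189 unblocked) and Il2rb (1.01 ± 0.20, adjusted p = 0.0202, 0.117 unblocked), over summed levels of 4.03 to 4.39 against 3.65 to 4.15; 1 rose without the block, from the 6 arrays alone or without AMD3100 array 1, marrow array 1 or marrow array 2. Among 23 myeloid priming genes 3 rose and 1 fell (median 0.16; 1 and 1 without the block or AMD3100 array 2, 1 and 0 from the 6 arrays alone or without marrow array 1 or 2, 2 and 0 without AMD3100 array 1). Irf8, the factor of monocytes and dendritic cells, rose (0.81 ± 0.20, adjusted p = 0.0349, 0.153 unblocked), Mpo (0.22 ± 0.17, adjusted p = 0.379) and Cebpa (0.31 ± 0.21, adjusted p = 0.312) did not pass, and Gfi1, described above, was the member that fell.

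Erythroid and platelet genes fell in part. Of 21 erythroid genes 7 fell and 0 rose (median -0.57; 1 fell without the block and 1 from the 6 arrays alone, 3 without marrow array 1 and 2 without marrow array 2). The water channel Aqp1 was above background in marrow only and at least 2.92-fold lower in blood (adjusted p = 0.00369), and the blood group protein Rhag at least 2.16-fold (adjusted p = 0.0163, 0.0750 unblocked). Gata1, the master factor of the lineage, went from -1.07, -1.13 and -0.58 to -1.66, -2.18 and -1.75 (-0.93 ± 0.26, adjusted p = 0.0485, 0.199 unblocked) and the erythropoietin receptor Epor gave -0.94 ± 0.26 (adjusted p = 0.0473, 0.127 unblocked). Klf1, at -0.75, -1.64 and -2.38 against -1.03, -1.01 and -0.01, did not pass (-0.90 ± 0.50, adjusted p = 0.231). Of 19 heme synthesis and globin genes 4 fell and 1 rose. Without marrow array 3 it was 3 and 3, and 1 fell and 0 rose without the block, from the 6 arrays alone, or without AMD3100 array 1 or 2 or marrow array 1 or 2. Enzymes of 3 steps of heme synthesis fell: Cpox, at least 4.02-fold lower (adjusted p = 0.00248), Urod (-0.85 ± 0.20, adjusted p = 0.0289, 0.129 unblocked) and Fech (-0.75 ± 0.21, adjusted p = 0.0496, 0.184 unblocked). A globin gene, Hba-a2, rose (1.41 ± 0.38, adjusted p = 0.0427, 0.0891 unblocked); its near-identical copy Hba-a1 gave 0.95 ± 0.34 (adjusted p = 0.0911), and the probes may share transcripts. The summed level of 7 erythroblast markers was 1.83 to 2.23 in blood and 2.44 to 2.64 in marrow. Of 22 megakaryocyte genes 6 fell and 3 rose (1 and 1 without the block, 2 and 3 without marrow array 1 or 2, and no call held from the 6 arrays alone). Pf4 (-1.45 ± 0.33, adjusted p = 0.0273, 0.137 unblocked) and Gp9 (-1.49 ± 0.26, adjusted p = 0.0127, 0.0561 unblocked) fell, while Gp6, the collagen receptor (1.44 ± 0.23, adjusted p = 0.00967, 0.0799 unblocked), and Plek (1.23 ± 0.18, adjusted p = 0.00845, 0.0726 unblocked) rose with Selp.

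Among chromatin and RNA processing genes most did not pass, and those that did were lower in blood. Of 28 Polycomb and DNA methylation genes 11 fell and 0 rose (median -0.44; 2 without the block, 3 without AMD3100 array 1, 7 without AMD3100 array 2 and 2 without marrow array 1 or 2; no call held from the 6 arrays alone or without slide 1 or slide 2). Asxl1, a partner of the BAP1 deubiquitinase, went from 1.87, 1.59 and 1.78 to 0.27, 0.16 and 0.54 (2.67-fold lower, -1.42 ± 0.18, adjusted p = 0.00455). Cbx7, a Polycomb reader, was above background in marrow only and at least 3.28-fold lower (adjusted p = 0.00806). The methyltransferases Dnmt1 (-0.95 ± 0.24, adjusted p = 0.0347, 0.184 unblocked), Dnmt3a (-0.84 ± 0.16, adjusted p = 0.0176, 0.153 unblocked) and Dnmt3b (-0.90 ± 0.20, adjusted p = 0.0252, 0.105 unblocked), the histone methyltransferase Ezh2 (-0.85 ± 0.18, adjusted p = 0.0217, 0.123 unblocked) and Uhrf1 (-0.69 ± 0.20, adjusted p = 0.0499, 0.189 unblocked) fell too, with further Dnmt3b probes at -0.66 and -0.48 that did not pass. Hells, a chromatin remodeller, was at least 1.18-fold lower (adjusted p = 0.0208, 0.0625 unblocked). Of 36 splicing factors 8 fell and 0 rose, and no call held without the block, from the 6 arrays alone or without AMD3100 array 1 or 2 or marrow array 1 or 2. Srsf4 (-0.85 ± 0.19, adjusted p = 0.0259, 0.120 unblocked) and Srsf7 (-0.88 ± 0.25, adjusted p = 0.0485, 0.144 unblocked; second probe -0.65, not passing) were among them.

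Metabolic and housekeeping lists held few calls. Of 64 respiratory chain subunits 6 fell and 0 rose (median -0.21; 1 without the block, 2 without AMD3100 array 1 or 2 and 2 without marrow array 3, and no call held from the 6 arrays alone or without marrow array 1 or 2), Sdha of complex II from 0.49, 0.30 and 0.25 to -1.33, -1.04 and -0.69 (-1.37 ± 0.26, adjusted p = 0.0166) and Ndufv1 of complex I by -1.18 ± 0.28 (adjusted p = 0.0293, 0.0786 unblocked). In glycolysis Ldhb, the lactate dehydrogenase subunit that favours pyruvate, had levels of -1.09, -1.26 and -1.03 against 0.42, 0.50 and 0.51 (3.04-fold lower, -1.60 ± 0.19, adjusted p = 0.00415). Pfkl fell (-0.85 ± 0.23, adjusted p = 0.0442, 0.184 unblocked) and the glucose transporter Slc2a3 rose (1.09 ± 0.17, adjusted p = 0.00967, 0.0840 unblocked), among 5 decreases and 1 increase in 34 genes (1 and 0 without the block, from the 6 arrays alone or without marrow array 2, 1 and 1 without AMD3100 array 1 or marrow array 1, 2 and 1 without AMD3100 array 2). The 61 ribosomal protein genes had a median of 0.13, which was -0.11 in the authors' table, and 0 passed (limma; 3 higher and 0 lower at an unadjusted p under 0.05). The 30 proteasome subunits had a median of -0.27 and 0 passed (limma; 0 higher and 10 lower at an unadjusted p under 0.05), with 3 lower after quantile normalization and in the authors' table. Of 18 glucocorticoid response genes 1 rose and 4 fell (1 and 1 without the block, 1 and 2 without marrow array 3). Sgk1, the serum and glucocorticoid kinase, rose from -2.25, -3.46 and -4.02 to -0.49, -1.25 and -0.95 (2.34 ± 0.27, adjusted p = 0.00352). On marrow array 3 Sgk1 lay below that array's lowest signal well above background (-3.84). The metallothioneins Mt1 (-1.97 ± 0.36, adjusted p = 0.0147) and Mt2 (-2.22 ± 0.41, adjusted p = 0.0156, 0.0526 unblocked, 2 of 3 blood arrays above background) fell, although a second Mt1 probe gave 0.04. Txnip, which limits glucose uptake, fell (-0.76 ± 0.19, adjusted p = 0.0337, 0.170 unblocked). The clock gene Per2 rose (1.03 ± 0.16, adjusted p = 0.00935, 0.0749 unblocked), and Per3 (-1.15 ± 0.28, adjusted p = 0.0321, 0.180 unblocked) and Cry2 (-0.88 ± 0.16, adjusted p = 0.0152, 0.245 unblocked) fell, among 2 increases and 5 decreases in 18 clock genes (0 and 1 without the block, none from the 6 arrays alone). The groups overlapped for Cry2. The times of day of sampling are not in the labels.

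Further genes stood among the 15 largest decreases of genes that had a standard symbol, kept their sign on all slides and were above background on all 6 arrays. The histone gene Hist1h2bg went from 3.77, 3.23 and 1.72 to 0.66, 0.56 and 0.89 (-2.21 ± 0.39, adjusted p = 0.0132). Mettl18, a histidine methyltransferase, went from -0.49, -0.83 and -1.43 to -2.93, -2.58 and -3.64 (-2.13 ± 0.24, adjusted p = 0.00317). Npdc1 went from -0.27, -0.60 and -0.06 to -2.33, -2.39 and -2.05 (-1.94 ± 0.20, adjusted p = 0.00232). The meiotic cohesin subunit Rec8 gave -1.85 ± 0.40 (adjusted p = 0.0230, 0.0551 unblocked), Armcx1 -2.05 ± 0.35 (adjusted p = 0.0126), Depdc1b -2.08 ± 0.32 (adjusted p = 0.00906), Tbkbp1 -1.84 ± 0.23 (adjusted p = 0.00455; second probe -0.50, not passing), Elp6 of the Elongator complex -1.82 ± 0.31 (adjusted p = 0.0119) and Golga1 -1.81 ± 0.28 (adjusted p = 0.00967). The MHC class II chain H2-Aa fell (-1.91 ± 0.54, adjusted p = 0.0489, 0.0904 unblocked) while its partner chain H2-Ab1 rose (0.80 ± 0.21, adjusted p = 0.0396, 0.185 unblocked). Of 16 tested MHC class II genes 2 rose and 2 fell, and no call held without the block or without marrow array 3. Genes above background only in blood had bounds of at least 4.53-fold (Scgb1b2, adjusted p = 0.0431, 0.148 unblocked), 4.40-fold (Drc7, adjusted p = 0.00697), 4.29-fold (Tppp, adjusted p = 0.00318) and 3.99-fold (Tshb, adjusted p = 0.000368). Melk, a kinase of dividing cells, was at least 3.73-fold lower (adjusted p = 0.00947). S100a9, a neutrophil granule protein at -0.81, -3.28 and 3.10 on the marrow arrays and below background on the blood arrays, had the largest bound (at least 9.89-fold lower) and did not pass (adjusted p = 0.0612).

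Direct contrasts with the other mobilized cells come from the same model of 12 arrays, whose spread the marrow arrays help to set, and share the AMD3100 arrays with the comparison above. Unblocked values are not given for single genes of these contrasts, so a missing value does not mean that a call held without the block. Against G-CSF blood 14903 genes passed (62.6%), 9419 higher in AMD3100 blood (39.6%) and 5484 lower (23.0%), a split of 63.2% higher that was 51.7% after quantile normalization and 52.8% in the authors' table. Without the block 7390 passed, and without slide 1 5220. Against CWHM-823 with tGro-b 4007 passed (16.8%), 2002 higher (8.41%) and 2005 lower (8.43%), but only 35 without the block and 1, 0 and 204 without slides 1, 2 and 3; with only the 6 arrays of those groups 0 passed (limma; 7015 at an unadjusted p under 0.05). The treatment times of AMD3100 and G-CSF differ, and none is given for CWHM-823 with tGro-b.

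Immediate early genes were lower after AMD3100 than after CWHM-823 with tGro-b in 12 of 29 tested members and higher in 0, beside 8.43% and 8.41% of all genes, and against G-CSF 10 were lower and 4 higher, beside 23.0% and 39.6%. Nr4a3 had levels of -1.88, -2.95 and -2.02 after AMD3100, -4.05, -4.38 and -4.29 after G-CSF and 0.51, 0.07 and 0.22 after CWHM-823 with tGro-b. It was therefore intermediate, above G-CSF (1.96 ± 0.20, adjusted p = 0.000897) and below the third group (-2.55 ± 0.20, adjusted p = 0.00171). Egr2 was lower than after CWHM-823 with tGro-b (-1.98 ± 0.53, adjusted p = 0.0394) and did not differ past the threshold from G-CSF (0.26 ± 0.53, adjusted p = 0.671). The feedback gene Spry1 kept the order of Nr4a3, at -0.90, -1.12 and -1.10, -1.43, -1.61 and -1.53 and 1.20, 1.02 and 0.94 (0.49 ± 0.16, adjusted p = 0.0272; -2.09 ± 0.16, adjusted p = 0.00171). Csrnp1 was lower than in both other groups (-1.57 ± 0.22, adjusted p = 0.00171; -2.12 ± 0.22, adjusted p = 0.00596). Selp was far lower than after G-CSF, at -1.95, -2.01 and -1.71 against 1.74, 1.37 and 1.48 (-3.42 ± 0.24, adjusted p = 0.000550), and Col18a1 likewise (-3.12 ± 0.23, adjusted p = 0.000550), while neither passed against the third group (0.15 ± 0.24, adjusted p = 0.641; 0.46 ± 0.23, adjusted p = 0.159). By the same limits on symbol, sign and background as above, over the 6 arrays compared, the other largest decreases against G-CSF were Bhlhe40 (-3.62 ± 0.37, adjusted p = 0.000897), Sbno2 (-3.21 ± 0.33, adjusted p = 0.000897), Tgfbi (-3.18 ± 0.31, adjusted p = 0.000858), Pmaip1 (-3.18 ± 0.24, adjusted p = 0.000551) and Bcl3 (-3.15 ± 0.20, adjusted p = 0.000381).

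Against G-CSF 14 of 29 lymphoid priming and 11 of 15 pre-B genes were higher, and 3 and 1 lower, beside 39.6% and 23.0% of all genes. Tcf7 had levels of 1.21, 1.10 and 0.90 after AMD3100 and -2.14, -1.72 and -2.09 after G-CSF (3.05 ± 0.33, adjusted p = 0.000912). Blnk had levels of 0.15, 0.00 and 0.40 and -4.44, -1.96 and -2.95 (3.30 ± 0.42, adjusted p = 0.00133). On G-CSF array 1 Blnk lay below that array's lowest signal well above background (-4.25), so its size is a fitted value. With Tcf7, the largest increases by the limits on symbol, sign and background given above were Vpreb3 (2.59 ± 0.25, adjusted p = 0.000825), the MHC class II invariant chain Cd74 (2.76 ± 0.39, adjusted p = 0.00174), Scin (2.77 ± 0.27, adjusted p = 0.000885), Ccdc177 (3.08 ± 0.40, adjusted p = 0.00136) and Dlx6 (2.74 ± 0.31, adjusted p = 0.00112). Against CWHM-823 with tGro-b Blnk did not pass (-0.18 ± 0.42, adjusted p = 0.756), and the largest increases within those limits were H2al1o (2.02 ± 0.20, adjusted p = 0.00472), Cib3 (1.93 ± 0.56, adjusted p = 0.0475), Ptprt (1.88 ± 0.45, adjusted p = 0.0327), Gpr137c (1.87 ± 0.50, adjusted p = 0.0406), Ly6g5c (1.85 ± 0.37, adjusted p = 0.0254) and the olfactory receptor gene Olfr93 (1.81 ± 0.14, adjusted p = 0.00171). All genes tested had a median of 0.162 in this contrast, 0.0386 after quantile normalization and 0.295 with no filter on dim probes. The part of array brightness in these increases was not tested. The stem cell list held 12 lower and 2 higher members against G-CSF, and 13 lower and 0 higher against the third group, including Slamf1 (-2.15 ± 0.26, adjusted p = 0.00124; -1.35 ± 0.26, adjusted p = 0.0242) and Pbx3 (-2.19 ± 0.31, adjusted p = 0.00170; -1.44 ± 0.31, adjusted p = 0.0275). Mecom differed from the third group (-1.23 ± 0.19, adjusted p = 0.0183) and not past the threshold from G-CSF (-0.31 ± 0.19, adjusted p = 0.174).

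Mitotic genes were also set against the other blood groups. Ccna2 was lower in AMD3100 blood than in both other mobilized groups (-1.46 ± 0.27, adjusted p = 0.00315; -1.24 ± 0.27, adjusted p = 0.0286), and of the 51 mitosis genes 20 were lower and 6 higher than after G-CSF, beside 23.0% and 39.6% of all genes. Against CWHM-823 with tGro-b 5 were lower and 1 higher, and the share lower was near the 8.43% of all genes. Every one of 30 proteasome subunits and 59 of 64 respiratory chain subunits were lower than after G-CSF, and 13 and 18 lower than after the third group. Heme synthesis and globin genes were lower in 10 of 19 and in 8 of 19. Slamf1 and Cpox were not well above background on the AMD3100 arrays, so the sizes given for them are fitted values. Cpox had levels of -4.05, -3.93 and -3.77, against -1.43, -1.86 and -1.11 after G-CSF and -1.91, -1.62 and -2.32 after CWHM-823 with tGro-b (-2.45 ± 0.24, adjusted p = 0.000877; -1.97 ± 0.24, adjusted p = 0.00993). Hba-a1 had levels of -0.01, 0.20 and -0.08, 2.68, 2.74 and 2.80 and 3.85, 3.66 and 3.12 (-2.71 ± 0.34, adjusted p = 0.00133; -3.51 ± 0.34, adjusted p = 0.00472). AMD3100 blood had the lowest alpha globin signal of the blood groups. Hba-a2, its near-identical copy, gave -3.49 ± 0.38, adjusted p = 0.00723 against the third group.

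**Figure D5:**
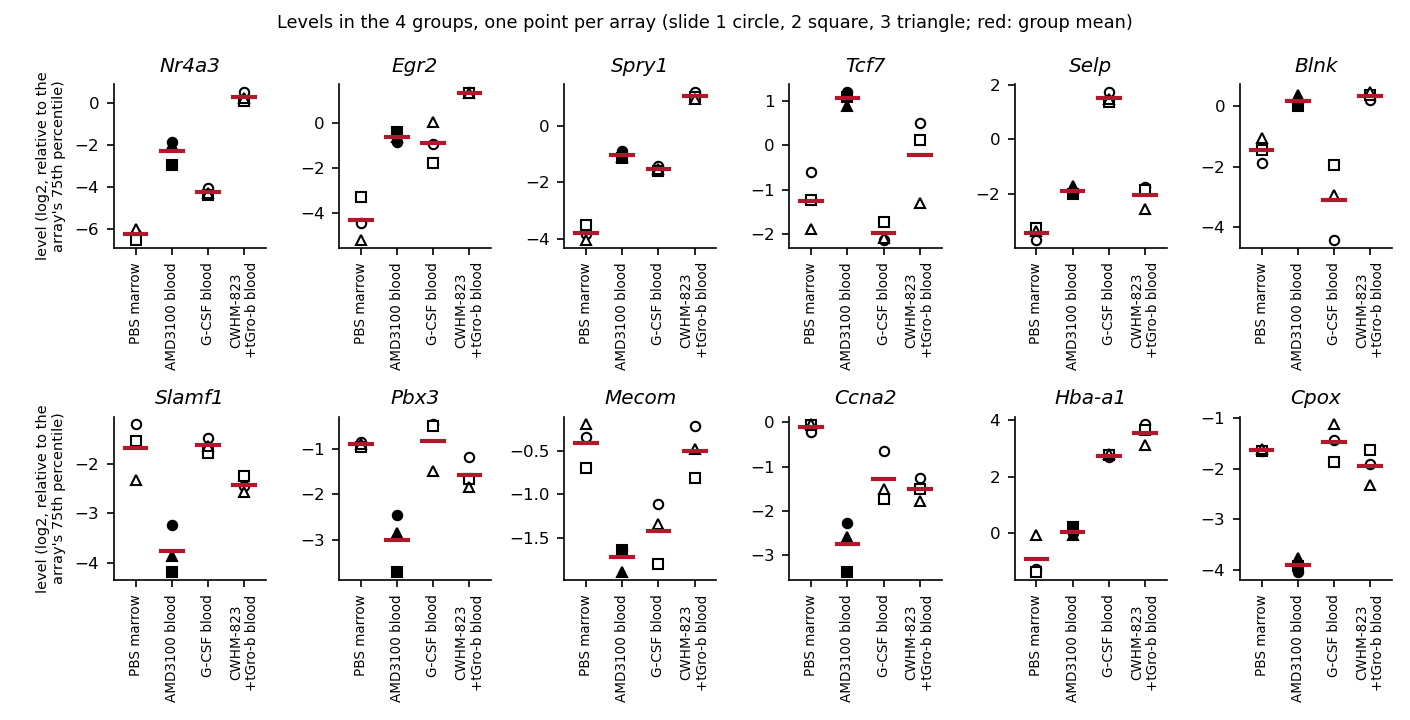
Levels of 12 genes on each of the 3 arrays of the 4 groups, in log2 relative to the array's 75th percentile; red bars are group means. Nr4a3 and Spry1 lie between G-CSF and CWHM-823 with tGro-b, Slamf1, Pbx3 and Cpox are lowest in AMD3100 blood, and Tcf7 is highest there.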

How the data were processed

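Per the labels' protocols, RNA of sorted LSK cells was amplified with WTA2 and labelled with a Kreatech ULS dye. Per the file headers, the deposited red-channel intensity of each spot had been background-corrected and processed by Agilent Feature Extraction. Control and outlier-flagged spots were dropped, log2 was taken and each array's 75th percentile subtracted. The authors' deposited value table, a linear intensity whose processing is not given in the sources used here, was an alternative. The log2 values computed from the deposited intensities were averaged over spots of a probe, and a gene was read from its brightest probe above background on all arrays of any group. Of 39429 probes 28330 were matched to genes by accession (RefSeq); 23795 genes were tested.

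limma 3.58.1 (R 4.3.3) fitted all 12 arrays with group means and slide as a block, the slide number being the replicate number in the labels. Same-numbered arrays deviated together (correlations 0.260 to 0.616, median 0.440). The comparison's gene lists were chosen with earlier results of these data known. Genes were named from the largest increases and decreases, the largest bounds, list members and receptors of the treatments. Some genes counted in the lists are not reported here by name. "At least" folds set the higher group's mean against the dimmer group's mean of, per array, the higher of the lowest signal well above background and the probe's own signal. On simulated data in which only these genes changed, 75 of 95 4-fold and 23 of 105 2-fold changes were recovered.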

Additional observations from a re-analysis of the deposited data

How the results depend on the processing

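Between AMD3100 blood and PBS marrow 3215 genes passed, and in all 338 passed without the replicate block, 146 from only those 6 arrays with the block (134 among the 3215), 1896 after normexp background correction (1801 among them) and 1920 with no filter on dim probes (1778 among them). Leaving out single arrays or slides gave counts of 37 to 3514. Against G-CSF blood 14903 passed, 7390 without the replicate block and 5220 to 13884 with an array or slide left out. Against CWHM-823 with tGro-b 4007 passed, and the count was 35 without the replicate block, 0 from only 6 arrays (limma; 7015 at an unadjusted p under 0.05), 2011 with normexp, 1559 with no filter, 6102 with an intensity trend and robust prior, and 0 to 3126 with an array or slide left out. Counts within 1.5 times of the 3215 came from quantile normalization (4302), the authors' table (4032), a stricter filter (3843), a trend with robust prior (4678) and means of all probes (3149). Bard1 changed sign, to 0.17 after quantile normalization, 0.17 in the authors' table and 0.45 by the mean of probes, and Tpm1 to -0.22 by the mean of probes. Cdk1, whose probes disagree, went from 0.78 to -2.13 with normexp and to -1.82 by the mean of probes. Quantile normalization moved the median of all genes from 0.11 to 0.02. The causes were not tested. The simulated data held 95 4-fold and 105 2-fold changes among 23795 genes, whereas 13.5% of genes passed in the data. The adjusted cutoff therefore differs, and the share of 2-fold changes missed in the data cannot be read from the simulation.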
